A study of Mus musculus with 6 samples.

Results

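Imprinted genes that act in growth control, 10 in number, were followed in cultured mouse satellite cells (SCs), the stem cells of skeletal muscle: H19, Meg3, Rian, Dlk1, Peg3, Mest, Plagl1, Grb10, Snrpn and Snurf. Each was taken as the row of the deposited table that carries its symbol, and each of the 10 symbols occurred once, so that 10 of 55416 genes are described. The list was proposed from the imprinted genes of myoblasts and was chosen by reading the TPM of these same libraries, so the levels below are a description. RNA was sequenced from 3 WT and 3 Ltf-KO libraries. Both groups were Sca1-/CD11b-/CD34+/α7-integrin+ cells sorted from hind leg muscle and grown on Matrigel for 4 days in medium with serum, chick embryo extract and basic fibroblast growth factor, with no other treatment. Ltf-KO mice carried a systemic CRISPR-Cas9 deletion in the lactoferrin gene made in C57/BL6N zygotes, and the study used mice of 8 to 10 weeks unless it said otherwise. The sources used here do not say how many mice gave the cells of each library, so p-values measure only the spread between these libraries, which may be technical.

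An imprinted gene is transcribed mainly from the copy inherited from a single parent. The parental copies differ in DNA methylation at an imprinting control region. Many such genes set the pace of fetal and postnatal growth: maternally expressed genes such as H19, Meg3, Rian and, in most tissues, Grb10 tend to restrain it, while paternally expressed genes such as Igf2, Dlk1, Peg3, Mest and Plagl1 include growth promoters. In muscle, H19 is among the most abundant noncoding RNAs of embryonic and cultured myogenic cells and falls after birth. The values below are total RNA of both copies, and allelic expression was not measured.

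Expression is given in TPM, in which reads are divided by gene length and each library is scaled to a common total. Levels of different genes can therefore be set side by side, while the depth behind them is unknown. Columns summed to between 993650 and 994356 TPM. Differences on log2(TPM + 1) were fitted with limma for the 12956 genes whose average reached 1 TPM, and are given as Ltf-KO minus WT; this scale understates the change of low genes. The targeted gene Ltf was listed at 0.02 to 0.12 TPM in WT and at 0 to 0.03 TPM in Ltf-KO libraries, too low to check the labels. Of 8 myoblast markers, 7 were above 10 TPM in all 6 libraries (Myod1 at 748 to 816 TPM, Pax7 at 36.6 to 43.3 TPM), and Msc was at 0.85 to 1.68 TPM. Ptprc of leukocytes was at 0 to 0.16 TPM. Fibroblast markers ran from Dpt at 0 to 0.21 TPM and Pdgfra at 1.00 to 1.90 TPM to Col3a1 at 88.0 to 118 TPM. Ddx3y was listed at 0 in all 6 libraries, with Xist at 163 to 185 TPM.

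Of the 10 genes, 9 overlapped between genotypes and had limma unadjusted p-values from 0.324 to 0.944, and 0 of the 10 had an adjusted p under 0.05. Snurf alone stood apart, listed at 0 TPM in all 3 Ltf-KO libraries and above 1 TPM in all 3 WT libraries. Snurf passed the filter on low values only through its WT libraries and so had to differ, and no support is read from its p or from a count that rests on it. That count was 1 of 10 genes at an unadjusted p under 0.05, beside 3.78% of all tested genes (1.78% lower and 2.01% higher in Ltf-KO), and 1 of 10 with groups that did not overlap, beside 8.46% of all tested genes. Across all genes, limma gave 0 adjusted p-values under 0.05 and 490 unadjusted p-values under 0.05. The median log2 difference of the 10 genes was 0.018, beside 0.011 for all tested genes, with 6 genes above 0 and 4 below. Over all 12956 tested genes, 7220 were above 0 and 5736 below.

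**Figure D1:**
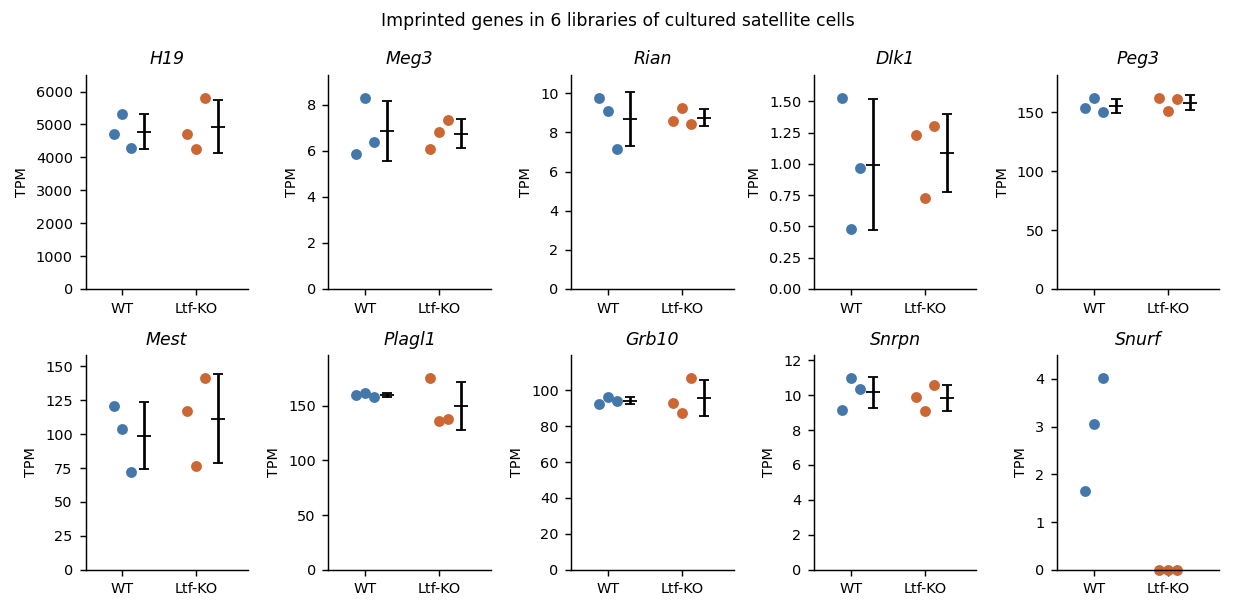
TPM of the 10 genes (y axes, linear from 0) in 3 WT (blue) and 3 Ltf-KO (orange) libraries; each point is 1 library, and black bars give the mean ± SD of a genotype except for Snurf. The genotypes overlap for 9 genes, and Snurf lies at 0 in the 3 Ltf-KO libraries and at 1.64 to 4.01 TPM in the 3 WT libraries.

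Sequences are shown first for the small RNAs that the host genes carry, because their host transcripts are measured here and the mature RNAs are not. In GRCm38, Mir675 lies inside H19 and Mir335 inside Mest, each on the strand of its host. The mature sequences, from RefSeq on GRCm38.p6, carry the seed (bases 2 to 8, which pair with target RNAs) in capitals.
mmu-miR-675-5p: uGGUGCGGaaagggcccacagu
mmu-miR-675-3p: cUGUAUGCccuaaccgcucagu
mmu-miR-335-5p: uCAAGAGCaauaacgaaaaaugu
mmu-miR-335-3p: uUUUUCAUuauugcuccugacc
The 4 seeds differ from each other. Mir675, Mir335 and 10 further miRNA genes of the imprinted domains, among them Mir370 inside Rian and Mir410 and Mir154 inside Mirg, were listed at 0 TPM in all 6 libraries, also where their host was abundant. The 12 genes gave 24 mature sequences in RefSeq with 24 different seeds. No level of a mature miRNA can be read from these zeros.

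H19, a maternally expressed noncoding RNA and the host of miR-675, was by far the most abundant of the 10 genes. It lies on chromosome 7 of GRCm38 from 142575529 to 142578143 on the minus strand (GENCODE M21). WT libraries held 4723, 5329 and 4272 TPM in replicates 1, 2 and 3, and Ltf-KO libraries held 4706, 4258 and 5819 TPM. The lowest and the highest value were thus both from Ltf-KO libraries. H19 ranked between 14th and 24th among all genes by library and made up 0.428% to 0.586% of all TPM. Its log2 difference was 0.039 with a 95% interval from -0.27 to 0.35 (limma adjusted p = 0.999).

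Igf2, the paternally expressed growth factor next to H19 that shares its control region and enhancers, kept a nearly fixed proportion to it. Igf2 was at 549, 644 and 490 TPM in WT and at 556, 488 and 726 TPM in Ltf-KO libraries. The H19 to Igf2 ratio was 8.60, 8.28 and 8.71 in the WT and 8.46, 8.72 and 8.01 in the Ltf-KO libraries. H19 differed 1.37-fold between its lowest and highest library, and the ratio differed 1.09-fold. The same order held in both genotypes: within each, the library with the most H19 had the most Igf2 and the lowest ratio.

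Among 8071 genes that averaged 10 TPM or more, those whose log2(TPM + 1) followed H19 most closely over the 6 libraries were Gpam, a glycerolipid synthesis enzyme (Pearson r = 0.999, Spearman rho = 0.943), Igf2 (r = 0.999, rho = 0.943) and Tnnt1, slow skeletal troponin T (r = 0.998, rho = 0.886). These are descriptions over 6 points that share libraries, and 146 genes reached an r of at least 0.9. For Igf2 the r was 0.995 without the 2 libraries farthest from the median of H19. Of the muscle differentiation markers, Myog and Actc1 were compared with H19. Myog, which drives terminal differentiation, was at 319, 410 and 293 TPM in WT and at 360, 266 and 508 TPM in Ltf-KO libraries (r = 0.975, rho = 0.943, and r = 0.866 without those 2 libraries). For Actc1, cardiac alpha actin, the r was 0.987 (rho = 0.943, and r = 0.991 without those 2 libraries). Ckm, muscle creatine kinase, had another order, at 4.23, 5.05 and 5.53 TPM in WT and at 5.53, 3.85 and 6.28 TPM in Ltf-KO libraries. The summed TPM of 8 of 8 differentiation markers, with 0 of them at 0, ranged from 2654 to 3638 in WT and from 2638 to 4266 in Ltf-KO libraries. Cdh5, an endothelial gene, had the opposite order to H19, at 1.98 to 4.59 TPM in WT and 1.79 to 4.97 TPM in Ltf-KO libraries (r = -0.868, rho = -1, and r = -0.742 without those 2 libraries). Of 6 endothelial markers only Cdh5 was compared with H19. Kdr had another order, at 1.35, 1.51 and 1.83 TPM in WT and at 1.31, 1.64 and 1.44 TPM in Ltf-KO libraries. The part of the differentiation and endothelial genes in the H19 values was not tested. In these bulk samples, fewer cells of a type and less RNA per cell cannot be told apart.

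**Figure D2:**
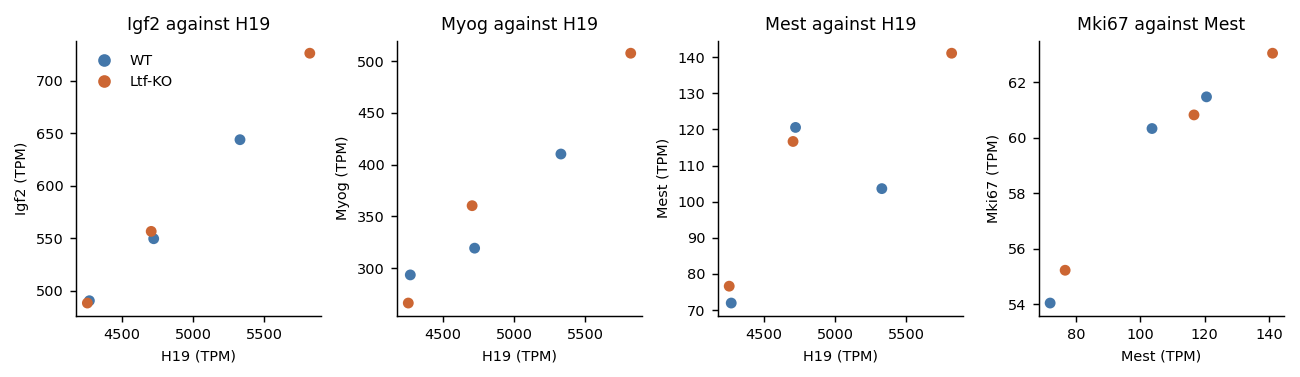
Each point is 1 library (blue WT, orange Ltf-KO) and each panel sets the TPM of 2 genes against each other on linear axes that do not start at 0: Igf2, Myog and Mest against H19, and Mki67 against Mest. Libraries of both genotypes mix along each trend, and Igf2 follows H19 most closely.

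The chromosome 12 domain was expressed at a low level, and its paternally expressed coding gene was near the floor. Dlk1, a transmembrane EGF-repeat protein that acts on Notch signaling and on adipocyte and muscle cell differentiation, was at 1.53, 0.48 and 0.97 TPM in WT and at 1.23, 0.73 and 1.30 TPM in Ltf-KO libraries. It ranged 3.19-fold over the libraries, with the highest and the lowest value both in WT. Meg3, the maternally expressed noncoding RNA beside Dlk1, was at 5.85, 8.32 and 6.37 TPM in WT and at 6.08, 6.80 and 7.35 TPM in Ltf-KO libraries. The Ltf-KO values of Meg3 all lay within the WT range. Rian, the noncoding RNA that follows Meg3 on the same strand and hosts small nucleolar RNAs, was at 9.78, 9.10 and 7.14 TPM in WT and at 8.57, 9.24 and 8.44 TPM in Ltf-KO libraries. Here, too, the Ltf-KO values fell inside the WT range.

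Meg3 and Rian, both read from the same strand, did not keep a fixed proportion in these values. Their ratio ran from 0.598 to 0.914 in WT and from 0.709 to 0.871 in Ltf-KO libraries. Over the 6 libraries their r was 0.050 (rho = -0.257, and r = 0.286 without the 2 libraries farthest from the median of Meg3). Their coefficients of variation were 13.5% and 10.4%, below the median of 16.1% for genes from 1 to 10 TPM. With so little spread at this low level, the r cannot tell whether the genes move together. The log2 differences between genotypes were 0.089 for Dlk1 (95% interval -0.51 to 0.69), -0.0097 for Meg3 (-0.33 to 0.31) and 0.021 for Rian (-0.26 to 0.30), each with a limma adjusted p of 0.999. The interval of Dlk1 was the widest of the 3. Mirg at 0.17 to 0.77 TPM, Rtl1 at 0.01 to 0.06 TPM and Dio3 at 0 TPM, the other genes of this domain on the list, were under the filter.

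Mest, a paternally expressed enzyme of the alpha/beta hydrolase fold that marks growing mesoderm, varied more between libraries than the other abundant members. It was at 121, 104 and 71.9 TPM in WT and at 117, 76.6 and 141 TPM in Ltf-KO libraries, a 1.96-fold range with a low and a high library in each genotype. Its coefficient of variation over the 6 libraries was 25.5%, above that of 98.6% of the 1391 genes at 100 TPM or more, whose median was 3.74%. The log2 difference was 0.16 with a 95% interval from -0.48 to 0.80 (limma adjusted p = 0.999). Without WT replicate 3 the difference was -0.048 and without Ltf-KO replicate 3 it was -0.029, so single libraries set its sign.

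The order of the libraries by Mest was that by Mki67. Among 7 genes outside the list that were compared with Mest, Mki67, which marks cycling cells, had the highest r at 0.988 (rho = 1, and r = 0.977 without the 2 libraries farthest from the median of Mest). Actc1 was next at 0.884 (rho = 0.714). Of the listed proliferation genes only Mki67 was compared. Pcna and Mcm2 were lowest in Ltf-KO replicate 3, the library with the most Mest, while Ccna2 was lowest in WT replicate 3, the library with the least. A link of Mest to cycling was not tested. Mki67 was at 61.5, 60.3 and 54.1 TPM in WT and at 60.8, 55.2 and 63.0 TPM in Ltf-KO libraries, so that its own range was far smaller than that of Mest. With H19 the r of Mest was 0.811 (rho = 0.771, and r = 0.993 without the 2 libraries farthest from the median of H19). Copg2, which overlaps the end of Mest on the opposite strand, was at 15.5 to 19.1 TPM, and the Mest to Copg2 ratio ran from 4.54 to 8.29. Reads in the overlap can be assigned to either gene unless counting used strand, which is not given in the sources used here.

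Promoter sequence is shown for Mest, the abundant member with the widest spread, and for the window that Snrpn and Snurf share, the only members with a common start. Both are the 250 bases before a RefSeq start on GRCm38.p6, 5′ to 3′, with CG pairs, the sites of DNA methylation, in capitals.
Mest, chr6:30737800-30738049, plus strand: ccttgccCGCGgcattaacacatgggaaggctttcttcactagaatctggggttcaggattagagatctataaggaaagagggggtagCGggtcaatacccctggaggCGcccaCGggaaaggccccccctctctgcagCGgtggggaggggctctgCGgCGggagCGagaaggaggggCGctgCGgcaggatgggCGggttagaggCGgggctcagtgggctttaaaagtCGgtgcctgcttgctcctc
Snrpn and Snurf, chr7:60005200-60005449, minus strand: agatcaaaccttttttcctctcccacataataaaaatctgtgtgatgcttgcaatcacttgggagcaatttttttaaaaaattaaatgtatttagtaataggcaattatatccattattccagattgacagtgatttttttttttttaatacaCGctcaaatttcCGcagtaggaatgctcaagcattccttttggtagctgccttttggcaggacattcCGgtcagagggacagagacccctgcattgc
The Mest stretch holds 14 CG pairs and the shared stretch holds 3. Over the whole 300-base windows (250 before to 50 after the start), TGCCGC, the core letters that the imprint-protecting factor ZFP57 binds when methylated, was found on either strand 2 times at this Mest start and 1 time in the shared window, while 11.6% of 32851 promoter windows held it. CAGCTG, an E-box of the kind MyoD binds, was found in 0 of these 2 windows and in 16.3% of all windows. RefSeq lists 3 windows for Mest: the one shown, one that starts 3 bases later, and one farther upstream, which held 8 CG pairs, 0 TGCCGC and 1 CAGCTG. The window shown was picked after these counts were seen. For Snrpn, RefSeq also lists 3 windows outside the shared one. They held 2, 3 and 4 CG pairs, beside 7 in the shared window, with 0 TGCCGC and 0 CAGCTG in each. RefSeq windows were matched for 9 of the 10 genes, and a match is a description of letters only.

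Plagl1, a paternally expressed zinc finger factor that regulates H19, Igf2 and other imprinted genes, was at 160, 162 and 158 TPM in WT and at 175, 136 and 138 TPM in Ltf-KO libraries. The WT values were close together, with a coefficient of variation of 1.37%, and the Ltf-KO values lay on both sides of them at 14.7%. Its log2 difference was -0.10 (95% interval -0.34 to 0.13, limma adjusted p = 0.999). Without Ltf-KO replicate 1, the library above the WT range, the difference was -0.22, with a limma unadjusted p of 0.00113 and an adjusted p of 0.758. Leaving out the only Ltf-KO library above WT had to lower this p, so no support is read from it. The difference was -0.0385 without Ltf-KO replicate 2 (limma unadjusted p = 0.719) and -0.0509 without Ltf-KO replicate 3 (limma unadjusted p = 0.656). Over the 6 libraries Plagl1 and H19 had different orders (r = -0.105, rho = 0.257, and r = 0.735 without the 2 libraries farthest from the median of H19).

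Peg3, a paternally expressed zinc finger protein found in muscle stem cells, was the steadiest member. It was at 154, 162 and 150 TPM in WT and at 162, 151 and 161 TPM in Ltf-KO libraries, a coefficient of variation of 3.73% over all 6. The log2 difference was 0.027 with a 95% interval from -0.084 to 0.14 (limma adjusted p = 0.999), the narrowest interval of the 10 genes. Usp29, which starts beside Peg3 and is read in the other direction, was at 4.60 to 5.86 TPM, and the Peg3 to Usp29 ratio was 27.6 to 30.6 in WT and 29.0 to 33.9 in Ltf-KO libraries. Zim1, the maternally expressed neighbour, was at 10.3 to 14.3 TPM.

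Grb10, an adaptor that binds the insulin and IGF1 receptors and dampens their signal, was at 92.4, 96.2 and 94.0 TPM in WT and at 93.0, 87.1 and 107 TPM in Ltf-KO libraries. As with Plagl1, the Ltf-KO libraries reached both below and above the WT libraries. The log2 difference was 0.016 (95% interval -0.16 to 0.20, limma adjusted p = 0.999). Of 13 genes listed as partners in growth signaling, 12 were tested and 1 had an unadjusted p under 0.05, beside 3.78% of all tested genes: Igf1r, the receptor for both IGF ligands, was at 14.2, 13.7 and 13.4 TPM in WT and at 15.4, 15.5 and 15.4 TPM in Ltf-KO libraries. These groups did not overlap, as for 8.46% of all tested genes, with a log2 difference of 0.15 (standard error 0.051, limma unadjusted p = 0.0219, adjusted p = 0.999), and the unadjusted p was not under 0.05 with the replicate block or without WT replicate 2 or 3 or Ltf-KO replicate 1 or 2. Hmga1 at 944 to 1056 TPM and Hmga2 at 221 to 245 TPM, chromatin proteins of growing cells, were the most abundant of this list, with overlapping groups. Igf2r, which clears IGF2 and is itself maternally expressed, was at 73.8 to 80.6 TPM over the 6 libraries.

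Snrpn and Snurf are 2 reading frames of the same paternally expressed transcription unit on chromosome 7. Snrpn encodes a spliceosome protein made mainly in brain, and Snurf encodes a small protein upstream of it. Snrpn was at 9.17, 11.0 and 10.3 TPM in WT and at 9.88, 9.06 and 10.6 TPM in Ltf-KO libraries, with overlapping groups and a log2 difference of -0.041 (95% interval -0.25 to 0.17, limma adjusted p = 0.999). Snurf was listed at 1.64, 3.05 and 4.01 TPM in WT and at 0, 0 and 0 TPM in Ltf-KO libraries. No fold can be given against a group listed at 0. The fitted difference of Snurf was -1.91 on log2(TPM + 1) and -4.82 on log2(TPM + 0.1), so its size depends on the pseudocount. The limma adjusted p was 0.911, and between 0.332 and 0.9997 over 11 alternatives.

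The gene model of Snurf bears on how this value is read. In GENCODE M21, Snurf-201 has 3 exons and 216 bases, from 59995449 to 60005049 on the minus strand of chromosome 7 of GRCm38. All 216 bases are found unbroken in Snrpn-201, a transcript of 1932 bases, at its bases 63 to 278. The first 30 bases of Snurf-201, with those of exon 1 in capitals, are thus also part of Snrpn-201.
Snurf-201, bases 1 to 30: ATGGAGCGAGGAAGggatcgcttacacttg
No read inside this model separates Snurf from Snrpn by sequence alone, and how the authors' counting split such reads is not given in the sources used here. The submitters' processing notes name GRCm39, so the models behind the table may differ from these. Summed over both genes, the values were 10.8, 14.0 and 14.3 TPM in WT and 9.88, 9.06 and 10.6 TPM in Ltf-KO libraries, and Snurf made up 15.2%, 21.8% and 27.96% of the sum in WT. The 2 groups of sums did not overlap, with WT replicate 1 and Ltf-KO replicate 3 close together. TPM divides reads by length, and the models here differ, at 216 and 1932 bases. A read given to Snurf would thus add more to the sum than a read given to Snrpn. The sums and shares therefore do not pool reads, and no loss is read from the lack of overlap. A further 5 genes shared the pattern of Snurf, at 0 in all Ltf-KO and at 1 TPM or more in all WT libraries (Gm16161, Gm14536, Gm15027, Gm44170 and 7SK, named after their values were seen), and 0 genes had the reverse pattern. With any value above 0 in place of 1 TPM, 85 genes, Snurf included, were at 0 in all Ltf-KO libraries alone and 70 were at 0 in all WT libraries alone.

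**Figure D3:**
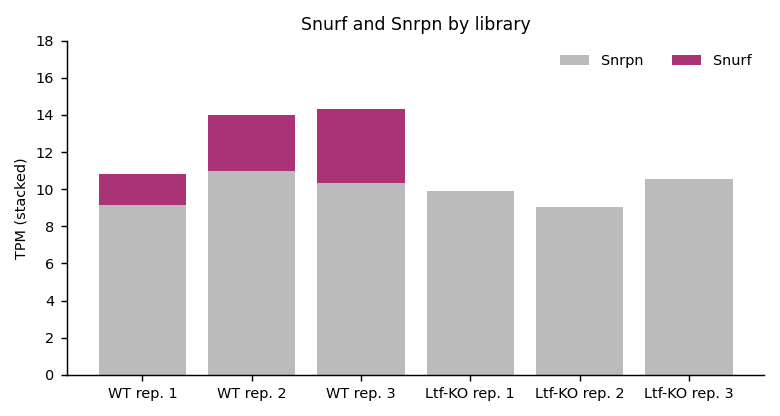
Stacked bars give the TPM of Snrpn (grey) and Snurf (magenta) in each of the 6 libraries, from 0. Snurf adds 1.64 to 4.01 TPM in the WT libraries and is listed at 0 in the Ltf-KO libraries, while Snrpn stays between 9.06 and 11.0 TPM.

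Downstream of Snrpn on the same strand, Snhg14, the long host RNA of the Prader-Willi region, was at 9.31, 10.1 and 7.12 TPM in WT and at 6.82, 5.19 and 7.99 TPM in Ltf-KO libraries. It had the lowest p among the other imprinted genes (log2 difference -0.36, standard error 0.17, limma unadjusted p = 0.0767, adjusted p = 0.999). The groups overlapped through WT replicate 3 and Ltf-KO replicate 3, and the limma unadjusted p was 0.0329 without the former and 0.0384 without the latter. Neither adjusted p was under 0.05, and no other alternative gave an unadjusted p under 0.05. Leaving out a library that made the groups overlap had to widen the difference, so no support is read from these p-values. Ndn, Peg12 and Mkrn3, paternally expressed genes of the same region, were at 13.4 to 15.3, 14.9 to 16.1 and 1.03 to 1.86 TPM, and Magel2 was listed at 0. Ube3a, maternally expressed in neurons, was at 23.0 to 25.5 TPM in WT and 24.6 to 30.1 TPM in Ltf-KO libraries.

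Of the 42 other imprinted genes listed, 27 were tested and 0 had an unadjusted p under 0.05, beside 3.78% of all tested genes. Their log2 differences ran from -0.36 to 0.16 with a median of 0.0067. Among the 22 paternally expressed ones 15 were tested, 7 above 0 and 8 below, and among the 20 maternally expressed ones 12 were tested, 9 above 0 and 3 below. Beside these, 7220 of all 12956 tested genes were above 0. Cdkn1c, the maternally expressed cyclin-dependent kinase inhibitor p57, was at 7.90, 6.68 and 3.33 TPM in WT and at 3.54, 4.31 and 5.85 TPM in Ltf-KO libraries. These groups overlapped (log2 difference -0.28, standard error 0.29, limma adjusted p = 0.999), and without WT replicate 3 the difference was -0.59 (limma unadjusted p = 0.0284, adjusted p = 1). That library held the lowest value of both groups, so leaving it out had to deepen the difference, and no support is read from this p. In no other alternative was the unadjusted p of Cdkn1c under 0.05. Gnas, which encodes the stimulatory G protein subunit, was the most abundant of them at 1704 to 1787 TPM. Airn, the noncoding RNA antisense to Igf2r, was at 18.2 to 26.2 TPM, and Peg10, a retrotransposon-derived gene, was at 26.0 to 33.4 TPM.

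**Figure D4:**
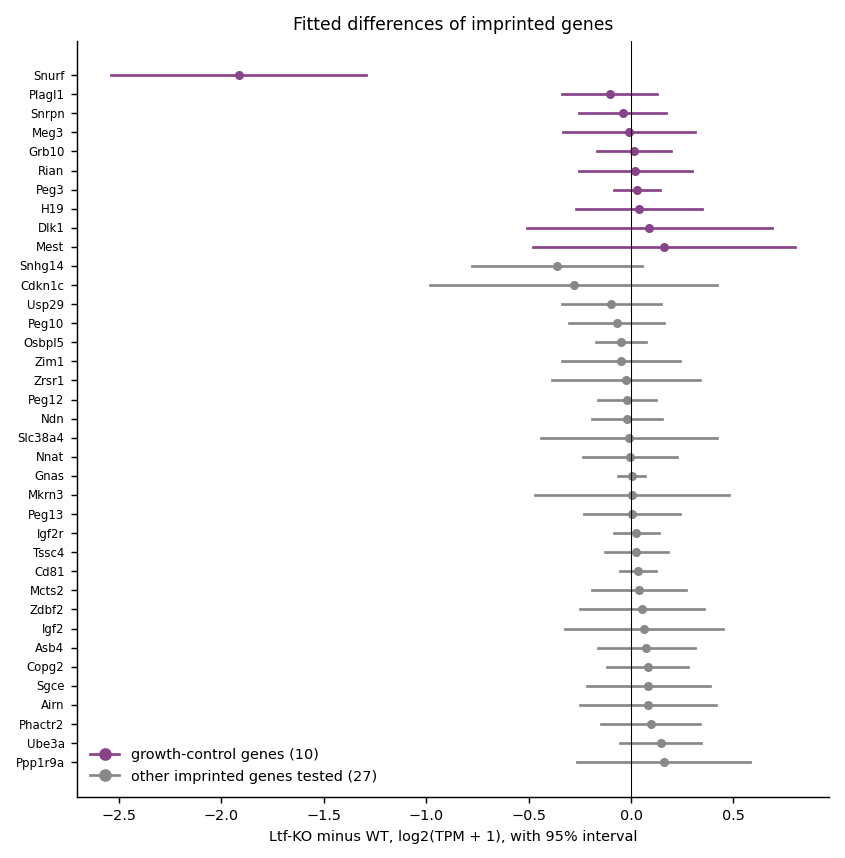
Points give the fitted Ltf-KO minus WT difference on log2(TPM + 1) and lines its 95% interval, for the 10 growth-control genes (purple) and the 27 other imprinted genes tested (grey). All intervals but that of Snurf cross 0.

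Of 9 genes that set or keep imprints, 6 averaged 10 TPM or more, Dnmt3a and Dnmt3b, the de novo methyltransferases, were at 4.91 to 6.53 and 0.92 to 1.44 TPM, and Dppa3, an oocyte and early embryo factor, was at 0 in all 6 libraries. Trim28, the corepressor recruited by ZFP57, was at 293 to 332 TPM, Dnmt1, the maintenance methyltransferase, at 83.5 to 87.9 TPM, Uhrf1, its cofactor, at 74.8 to 82.9 TPM, and Zfp57 itself at 14.1 to 20.1 TPM. Ctcf, the insulator protein that binds the H19 and Igf2 control region, was at 46.8, 49.97 and 46.2 TPM in WT and at 44.1, 45.7 and 46.0 TPM in Ltf-KO libraries. Its groups did not overlap, as for 8.46% of all tested genes, with a log2 difference of -0.072 (standard error 0.047, limma unadjusted p = 0.174). Of the 9 genes 8 were tested, and 0 had an unadjusted p under 0.05, beside 3.78% of all tested genes.

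Set against genes of like level, the 10 genes fell on both sides of the usual spread between libraries. H19 had a coefficient of variation of 12.7%, above that of 94.8% of genes at 100 TPM or more, and Plagl1 with 9.74% lay above 91.8% of them. Snrpn with 7.66% and Rian with 10.4% were below the median of 16.1% for the 4884 genes from 1 to 10 TPM. Grb10 with 6.86% was near the median of 6.29% for the 6681 genes from 10 to 100 TPM. Over the 45 pairs of the 10 genes, Pearson's r across the 6 libraries was above 0 for 31, with a median of 0.191. Among the same 8071 genes that averaged 10 TPM or more, which leaves out the low genes that share its zeros, those closest to Snurf, the most variable member, were Tasp1 (r = 0.985, rho = 0.941), Arrb2 (r = 0.978, rho = 0.941) and Hspa14 (r = 0.976, rho = 0.880), over 6 points of which 3 were at 0, and 50 genes reached an r of at least 0.9.

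**Figure D5:**
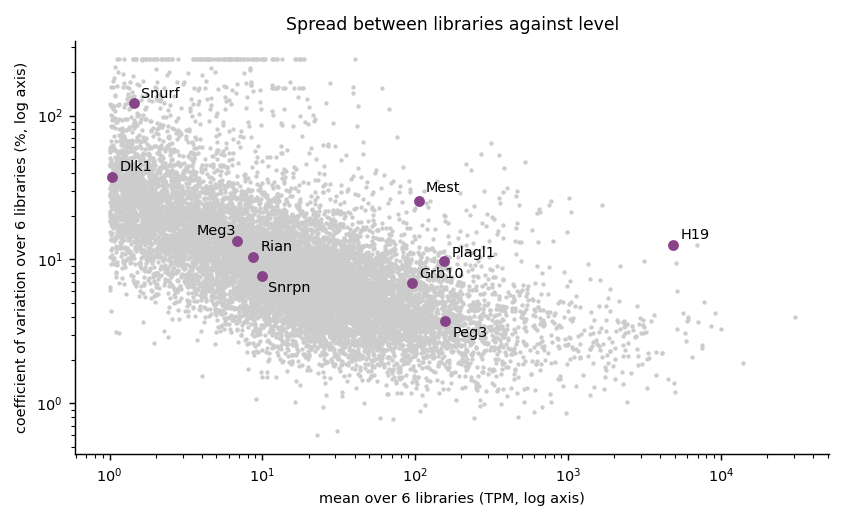
Each grey point is 1 of the 12956 tested genes, with its mean TPM (x, log axis) against its coefficient of variation over the 6 libraries in percent (y, log axis); purple points are the 10 genes. Mest and H19 lie above most genes of their level, and Peg3 lies at the median of its level.

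Markers of other cells are given for the whole lists, since the cultures are bulk samples. The summed TPM of 8 fibroblast markers, with 0 of them at 0 throughout, was 128 to 133 in WT and 129 to 166 in Ltf-KO libraries, that of 7 smooth muscle and pericyte markers 510 to 592 and 584 to 696, that of 6 endothelial markers 5.80 to 14.6 and 5.74 to 13.7, that of 6 macrophage markers 4.46 to 11.6 and 3.66 to 4.73, that of 5 Schwann cell markers 21.1 to 37.4 and 25.2 to 37.1, and that of 5 adipocyte markers, with Cidec at 0 throughout, 5.84 to 7.03 and 6.28 to 7.57. Counts above and below 0 stand beside 7220 above 0 among all 12956 tested genes. Genes of a list share the same libraries, so such counts are descriptions. Of the smooth muscle and pericyte list 4 genes were tested, all 4 above 0 in Ltf-KO minus WT, and 2 had an unadjusted p under 0.05, beside 3.78% of all tested genes. Of the fibroblast list 6 were tested, all 6 above 0 with a median log2 difference of 0.25, and 0 had an unadjusted p under 0.05 (lowest for Col1a2, limma unadjusted p = 0.0502). The tested endothelial (3 above 0 and 1 below), macrophage (0 and 2), Schwann cell (4 and 1) and adipocyte (1 and 1) markers likewise held 0 such genes. Tagln of smooth muscle and Pdgfrb of pericytes were the pair, with Pdgfrb at 3.73 to 4.71 TPM in WT and 4.80 to 7.51 TPM in Ltf-KO libraries (log2 difference 0.52, standard error 0.16, limma unadjusted p = 0.0171, adjusted p = 0.999), and its unadjusted p was not under 0.05 without WT replicate 1 or 2 or Ltf-KO replicate 1 or 2. Tagln was at 59.5 to 60.8 TPM in WT and 66.0 to 83.8 TPM in Ltf-KO libraries (limma unadjusted p = 0.0277, adjusted p = 0.999). Groups did not overlap for Tagln and Pdgfrb, nor for Cd68 of macrophages, lower in Ltf-KO, beside 8.46% of all tested genes. Myh11 and Rgs5, which define smooth muscle cells and pericytes, were under the filter. Myh11 was at 0.17 to 0.41 TPM in WT and 0.39 to 0.62 TPM in Ltf-KO libraries. Rgs5 was at 0.12 to 0.18 and 0.23 to 0.46 TPM, with no overlap, and no share was computed for genes under the filter. Of the 7 proliferation genes and the 8 myoblast markers, 0 had an unadjusted p under 0.05. Of the proliferation genes, 1 was above 0 and 6 below, with the lowest p for Pcna (limma unadjusted p = 0.0507). Groups did not overlap for 2 of these 7 genes, Pcna and Mcm2, beside 8.46% of all tested genes. Of the myoblast markers, 5 were above 0 and 3 below, and groups did not overlap for 1. The part of these markers in the values of the imprinted genes was not tested.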

How the data were processed

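RNA sequencing of 3 WT and 3 Ltf-KO libraries was used, with groups and replicate numbers from the sample titles. The authors deposited TPM values with 2 decimals for 55416 genes, extracted and normalized by the sequencing provider's protocol. The unit was read from the column sums. The submitters' processing notes name GRCm39, and aligner, counting tool and annotation are not given in the sources used here. TPM keeps no depth, so no counting interval was computed. limma 3.58.1 in R 4.3.3 (lmFit, eBayes with trend) was run, two-sided, on log2(TPM + 1) of the 12956 genes that averaged 1 TPM or more, with Benjamini-Hochberg adjustment over all of them, and was tested on simulated data. The design assumed that counts might be present; none were, and count models were not run.

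Gene lists and members were chosen with earlier results of these data known. Genes named are the 10 members, listed genes averaging 10 TPM or more or with an unadjusted p under 0.05 (up to 6 a list), and the 3 genes most like H19 and Snurf; others, from a member's domain or a marker list, were chosen after their values were seen. Correlations are descriptions. Sequences are from RefSeq (GRCm38.p6) and GENCODE M21 (GRCm38). Alternatives were a pseudocount of 0.1, no filter, a mean of at least 10 TPM, quantile and median-of-ratios scaling, a replicate block and each library left out. Replicate numbers showed no pairing of the libraries: the deviations of same-numbered libraries correlated at -0.041, -0.058 and -0.088 across genes.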

Additional observations from a re-analysis of the deposited data

How the results depend on the processing

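Under the alternatives that kept all 6 libraries, 54 of 55 log2 differences of the 10 genes kept their sign; Rian was -0.0065 with quantile normalization. None of the 10 reached an adjusted p under 0.05 in the alternatives run. Of all genes tested, 0 reached it in every fit with all libraries, and 0 to 6 did with a library left out (0 without WT replicate 1, 6 without WT replicate 2, 1 without WT replicate 3, 5 without Ltf-KO replicate 1, 2 without Ltf-KO replicate 2 and 4 without Ltf-KO replicate 3). An unadjusted p under 0.05 was reached by 490 genes, by 890 with no filter and by 281 among genes averaging 10 TPM or more, settings that test other numbers of genes, and by 456 to 611 with a library left out. The share of these that were lower in Ltf-KO was 46.9%, 60.04% with quantile normalization and 55.8% with median-of-ratios scaling. Among the 10 genes the count was 1, then 0 among genes averaging 10 TPM or more, which leaves Snurf out, and 1 to 2 with a library left out (2 without Ltf-KO replicate 1, where Plagl1 joined). Among the other imprinted genes it was 0, and 0 to 2 with a library left out (2 without WT replicate 3, 1 without Ltf-KO replicate 2 and 1 without Ltf-KO replicate 3). With a library left out, log2 differences ranged from -0.087 to 0.138 for H19, -0.101 to 0.121 for Meg3, -0.099 to 0.104 for Rian, -0.109 to 0.278 for Dlk1, -0.048 to 0.407 for Mest, -0.065 to 0.079 for Grb10 and -0.106 to 0.011 for Snrpn; the cause was not tested. Peg3, Plagl1 and Snurf kept their sign in every fit run. With the replicate block, 380 genes had an unadjusted p under 0.05 and 0 an adjusted p under 0.05. The libraries share only a number. Each WT library correlated best with a Ltf-KO library of another number, at only 0.0677, 0.0405 and 0.0868, too close to 0 to show a pairing. Count models could not be run on TPM.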
